A study of Mus musculus with 2 samples.

Results

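The genes described are the nuclear subunits of oxidative phosphorylation, chosen by symbol and by no measured value, with earlier results of these data known. They were every gene row whose symbol starts with Nduf followed by a, b, c, s or v and a digit, the 4 genes Sdha, Sdhb, Sdhc and Sdhd, and every row starting with Uqcr, Cox4, Cox5, Cox6, Cox7, Cox8 or Atp5. The rule took 85 of the 23210 genes used. They comprised 35 rows of complex I, 4 of complex II, 8 of complex III, 21 of complex IV and 17 of complex V. Ndufa4 and Ndufa4l2 were counted with complex IV, since the NDUFA4 protein is a subunit of cytochrome c oxidase. For 3 rows the symbol fits the rule but the gene encodes no subunit of the complex: Cox4nb (Emc8, of the ER membrane protein complex), Atp5s (Dmac2l) and Atp5sl (Dmac2). These 3 rows are counted among the subunit genes below except where they are left out.

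RNA of mouse hematopoietic stem cells had been sequenced in 2 libraries, and these multipotent cells give rise to all blood lineages. The libraries were of SATB1-positive cells and of SATB1-negative cells, as told apart by the red fluorescent Satb1-Tomato reporter, and both came from LSK (lineage-negative, Sca-1+, c-Kit+) CD150+ Flt3- cells. SATB1 is a nuclear protein that binds AT-rich DNA and organises chromatin, and the study set stem cells with it beside those without it. The number, age and strain of the mice, and whether mice were pooled, are not stated in the labels.

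Oxidative phosphorylation couples electron flow to ATP synthesis in the inner mitochondrial membrane. Complexes I and II pass electrons from NADH and succinate to ubiquinone, complex III passes them on to cytochrome c, complex IV reduces oxygen, and complex V makes ATP from the proton gradient that complexes I, III and IV build. Most subunits are encoded in the nucleus and a few in mitochondrial DNA, so that the complexes are assembled from both. Quiescent hematopoietic stem cells are known to keep respiration low and to lean on glycolysis, and respiration increases as they divide and differentiate.

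Levels are FPKM, fragments scaled by transcript length and by the number of mapped fragments, as the authors deposited them. The log2 ratio used throughout is log2((SATB1-positive FPKM + 1)/(SATB1-negative FPKM + 1)), so a positive value means higher in SATB1-positive cells, and it understates the difference of genes at low levels. A fold is the plain ratio of the 2 FPKM values with an exact Clopper-Pearson 95% interval on the estimated fragments, which covers counting error only. With 1 library per group there is no replicate, so no test was possible and no difference below has a replicate check. FPKM is a share of each library, so fewer cells of a type and less RNA per cell cannot be told apart.

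The depth estimated from the steps of low FPKM values was 26780000 fragments in the SATB1-positive and 35160000 in the SATB1-negative library. The reporter gene's own transcript, Satb1, stood at 8.26 FPKM in SATB1-positive and 2.37 FPKM in SATB1-negative cells, and the gate's markers Kit, Ly6a (Sca-1) and Slamf1 (CD150) were present in both. Flt3 transcript was at 27.1 and 17.3 FPKM, and that of Cd48, a surface protein that stem cells mostly lack, at 145.1 and 47.6 FPKM. Transcripts that mark other or dividing cells differed between the libraries. All 10 T and NK cell genes were higher in SATB1-positive cells (summed 73.3 against 14.2 FPKM), as were 5 of 6 basophil and mast cell genes (694 against 308 FPKM), 5 of 9 neutrophil and granulocyte progenitor genes (3586 against 1777 FPKM) and all 8 proliferation genes (1428 against 1153 FPKM). Mpo (1528 against 437 FPKM) and Elane (1081 against 490 FPKM) gave most of the neutrophil and granulocyte progenitor sum, while S100a8, Ltf, Camp and Ngp were lower in SATB1-positive cells. The 5 B cell genes summed to 35.1 against 34.9 FPKM, nearly all of it Cd79b, with Pax5 near 0. The 7 erythroid genes summed to 63.9 against 64.2 FPKM, 2 higher and 5 lower in SATB1-positive cells, with Hba-a2 near 0. Among them Hbb-b1 was at 7.01 against 1.15 FPKM, while Hba-a1 was at 7.47 against 11.9 FPKM and Hbb-b2 at 7.28 against 11.3 FPKM. The part of these transcripts in the results below was not tested.

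As a group the subunit genes were expressed at nearly the same level in both kinds of cells. A mean of at least 5 FPKM over the 2 libraries was reached by 76 of the 85 genes, called expressed below. Their levels ran from 5.65 to 672 FPKM in SATB1-positive cells and from 5.64 to 583 FPKM in SATB1-negative cells, with medians of 81.9 and 80.6 FPKM, against medians of 22.8 and 22.6 FPKM over the 9094 genes of the whole series that passed the same filter. Summed over the 76 genes they took 1.64% of all FPKM in SATB1-positive and 1.66% in SATB1-negative cells. The difference was -0.0152 percentage points, with an approximate 95% half-width of 0.0117 points from counting alone. For the 32 genes that share no 50-base word with another gene, the difference was -0.0004998 points. Their sum is a smaller part of all FPKM, so the 2 differences do not have the same base.

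No subunit gene reached a 2-fold difference in either direction, by a rule that asked for 5 FPKM or more in the library where the gene was higher. Over the whole series 1.31% of 9308 genes were higher and 0.688% lower in SATB1-positive cells by that rule. At a difference of 25% (the higher library at least 25% above the lower on the log2 scale with the added 1) and a mean of at least 5 FPKM, 2 of 76 subunit genes (2.63%) were higher and 4 (5.26%) lower. Over the 9094 genes the shares were 10.6% higher and 9.70% lower. Of the 32 expressed subunit genes that share no 50-base words with another gene, 1 was higher (Cox8a) and 1 lower (Atp5e). Among the 49 subunit genes with a mean of at least 50 FPKM, 2 were higher and 2 lower (4.08% each), against 8.51% higher and 7.48% lower of 2127 such genes. The median size of the log2 ratio, whatever its sign, was 0.117 for the subunits and 0.155 for all expressed genes. At a mean of at least 50 FPKM these medians were 0.115 and 0.135. The median signed log2 ratio was -0.04 for the subunits, of which 29 lay above 0 and 47 below, and 0.00 for all expressed genes, of which 4543 lay above 0 and 4551 below.

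**Figure D1:**
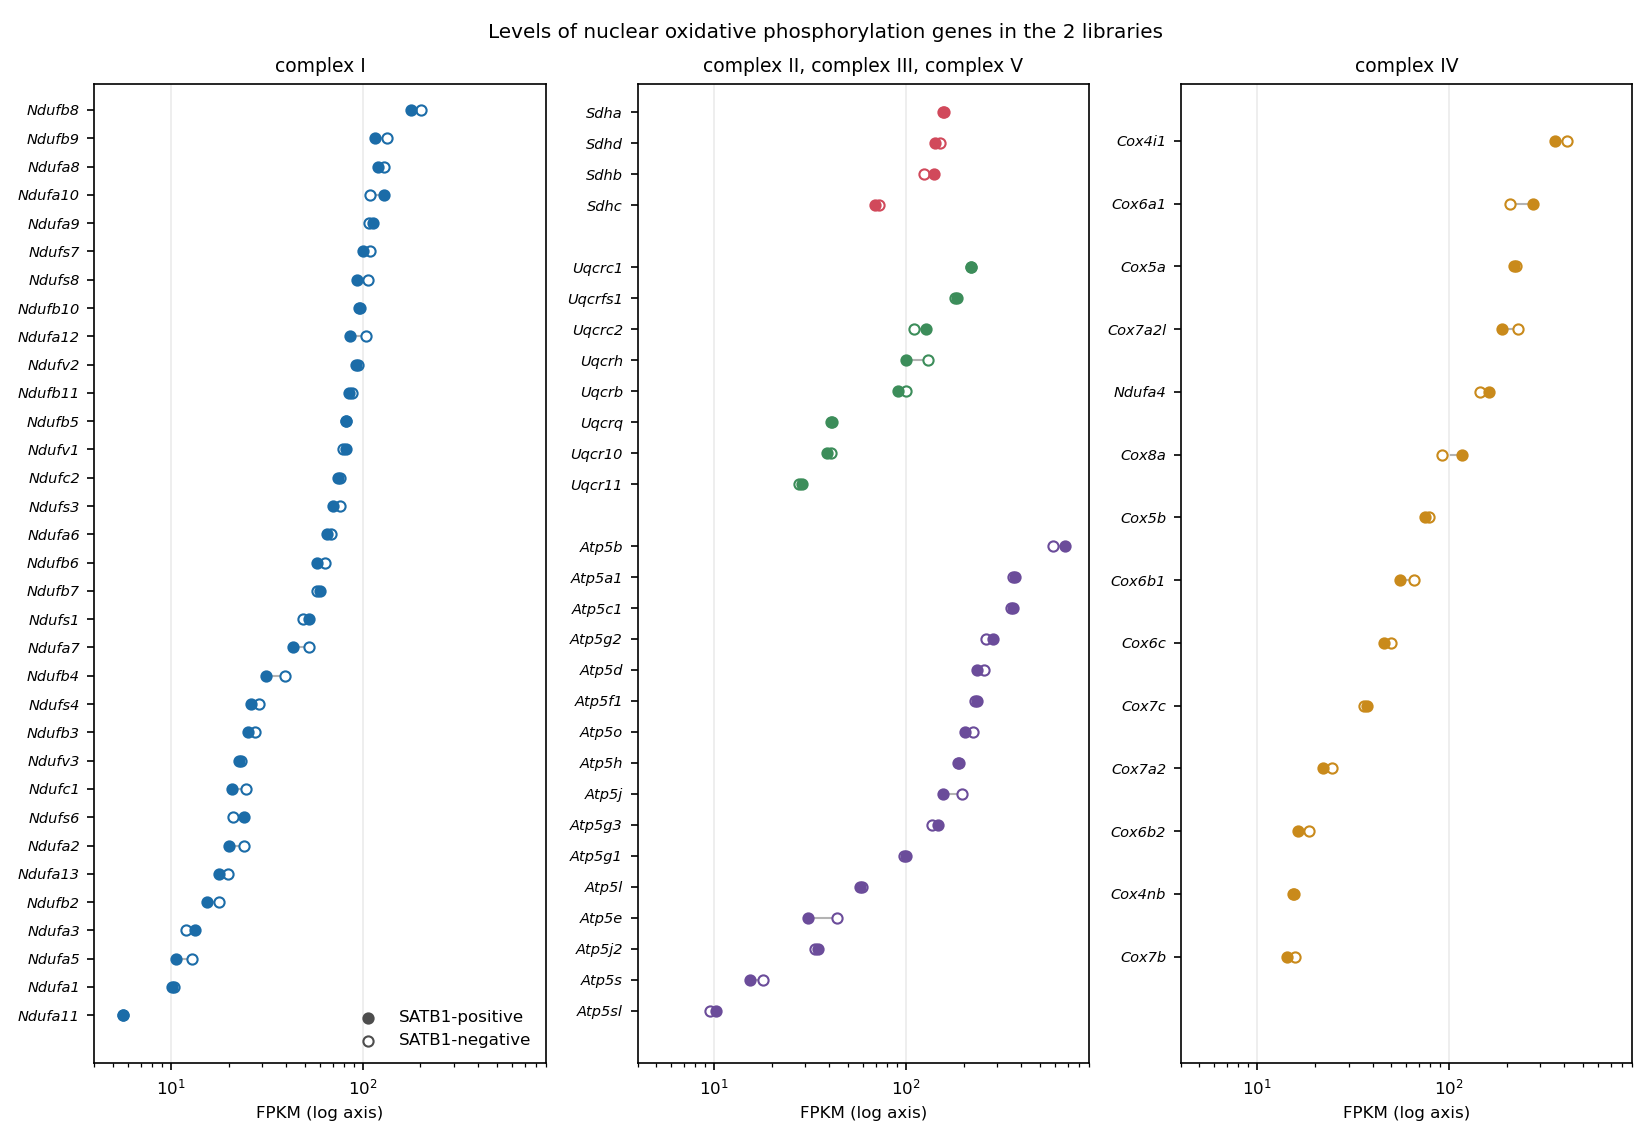
FPKM of the expressed subunit genes on a log axis, with 1 gene left out, by respiratory complex and ordered by mean level; filled circles are the SATB1-positive library and open circles the SATB1-negative library, joined by a line. The circles of most genes lie close together, while the levels within complexes I, IV and V run from under 20 FPKM to over 150 FPKM. In complex V the levels under 20 FPKM are those of Atp5s and Atp5sl, which encode no subunit.

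The order of the genes by level was almost the same in both libraries. Spearman's rho between the libraries was 0.993 across the 76 genes and 0.966 across all 9094, given as a description, since genes are not replicates. Within a complex the levels differed widely. Leaving out the rows that encode no subunit, the most abundant expressed gene exceeded the least abundant by 31.5-fold in SATB1-positive and 35.8-fold in SATB1-negative cells in complex I, and by 24.99-fold and 26.2-fold in complex IV. In complex V the span was 21.8-fold in SATB1-positive and 17.2-fold in SATB1-negative cells, in complex III 7.53-fold and 7.86-fold, and in complex II 2.27-fold and 2.19-fold.

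The 6 genes past 25% belonged to complexes I, III, IV and V, and their promoters are shown because they differed most among the expressed members. Cox6a1 and Cox8a, both small structural subunits of complex IV, were higher in SATB1-positive cells. Atp5e (the epsilon subunit of the F1 part), Uqcrh (the hinge protein of complex III), Atp5j (coupling factor 6 of the peripheral stalk) and Ndufb4 (an accessory subunit of complex I) were lower. Each sequence covers 150 bases before to 20 bases after the start that RefSeq gives, in GRCm38.p6, which is the build named mm10. The windows are chr5:115348939-115349108 (minus strand) for Cox6a1, chr19:7217597-7217766 (minus strand) for Cox8a, chr2:174464082-174464251 (minus strand) for Atp5e, chr4:116075051-116075220 (minus strand) for Uqcrh, chr16:84834957-84835126 (minus strand) for Atp5j and chr16:37654349-37654518 (minus strand) for Ndufb4. Capitals mark exact matches, on either strand, to the NRF1 core GCGCANGCG, the ETS core CCGGAAG, the YY1 core AAGATGGCG or the ERR half-site NAAGGTCA.
Cox6a1: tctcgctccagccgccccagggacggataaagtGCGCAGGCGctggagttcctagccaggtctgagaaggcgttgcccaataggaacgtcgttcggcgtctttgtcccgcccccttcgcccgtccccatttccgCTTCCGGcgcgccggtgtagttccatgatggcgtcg
Cox8a: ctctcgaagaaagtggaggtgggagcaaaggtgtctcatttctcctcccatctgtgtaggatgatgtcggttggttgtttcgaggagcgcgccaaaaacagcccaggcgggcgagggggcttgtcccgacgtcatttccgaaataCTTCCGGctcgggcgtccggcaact
Atp5e: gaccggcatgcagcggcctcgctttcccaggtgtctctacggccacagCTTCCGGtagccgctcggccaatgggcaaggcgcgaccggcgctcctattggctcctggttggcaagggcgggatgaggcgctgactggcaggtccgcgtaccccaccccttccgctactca
Uqcrh: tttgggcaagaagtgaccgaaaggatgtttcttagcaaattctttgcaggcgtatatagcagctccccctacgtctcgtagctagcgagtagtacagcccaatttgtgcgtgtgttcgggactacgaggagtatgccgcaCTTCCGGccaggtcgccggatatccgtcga
Atp5j: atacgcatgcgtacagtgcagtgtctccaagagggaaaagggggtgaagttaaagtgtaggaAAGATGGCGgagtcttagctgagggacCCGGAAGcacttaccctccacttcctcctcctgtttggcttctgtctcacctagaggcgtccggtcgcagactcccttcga
Ndufb4: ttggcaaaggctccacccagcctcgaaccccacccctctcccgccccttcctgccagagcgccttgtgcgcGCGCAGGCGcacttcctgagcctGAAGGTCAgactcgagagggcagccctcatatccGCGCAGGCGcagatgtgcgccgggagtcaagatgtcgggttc

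These motifs are those of factors known to act on respiratory genes: NRF1, the ETS factor GABP (NRF2), YY1 and the estrogen-related receptors. In the windows shown, Cox6a1 held an NRF1 core and an ETS core, Cox8a, Atp5e and Uqcrh an ETS core each, Atp5j a YY1 core and an ETS core, and Ndufb4 a pair of NRF1 cores and an ERR half-site. The NRF1 core and the ETS core thus each occurred in genes of both directions. None of the 4 motifs contains another. RefSeq gives Atp5j another start, whose window held none of the motifs. Of the 85 subunit genes, 69 matched an entry in the promoter table, and in their 300-base windows (250 before to 50 after the start) the NRF1 core was found in 20 (29.0%), the ETS core in 16 (23.2%), the YY1 core in 8 (11.6%) and the ERR half-site in 8 (11.6%). Over all 27025 genes of that table the shares were 7.03%, 9.93%, 1.64% and 5.36% in the same order. Among expressed genes the NRF1, ETS and YY1 cores were more frequent than over the whole table and the ERR half-site less frequent. The shares in the 64 expressed subunit genes and in 7317 expressed genes were 28.1% against 17.3% for the NRF1 core, 23.4% against 23.3% for the ETS core, 12.5% against 4.44% for the YY1 core and 9.38% against 3.80% for the ERR half-site. Subunit genes with an NRF1 core had a median log2 ratio of -0.01 (18 genes) and those without it -0.06 (46 genes). With and without an ETS core the medians were -0.09 (15 genes) and -0.04 (49 genes). For a YY1 core they were -0.04 (8 genes) and -0.04 (56 genes), and for an ERR half-site -0.14 (6 genes) and -0.03 (58 genes). Genes above and below 0 were 8 and 10 with an NRF1 core, 5 and 10 with an ETS core, 4 and 4 with a YY1 core and 1 and 5 with an ERR half-site. Without the motif they were, in the same order, 15 and 31, 18 and 31, 19 and 37, and 22 and 36. A match is a description of the letters in these windows.

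**Figure D2:**
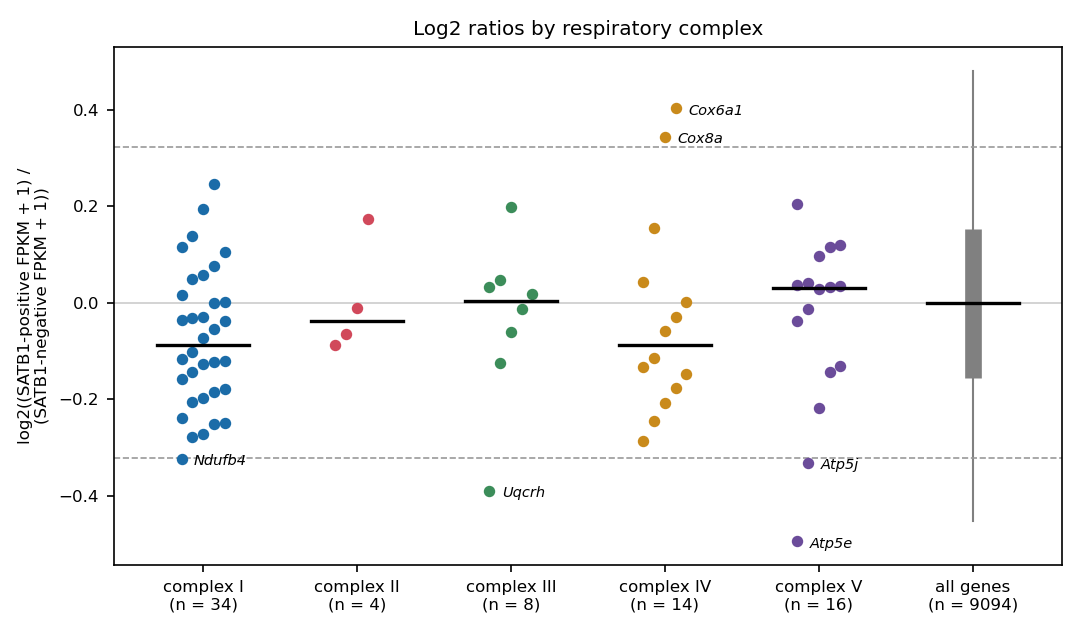
Log2 ratio of each expressed subunit gene, SATB1-positive over SATB1-negative, by complex; black bars are medians, dashed lines mark the 25% difference, and for all 9094 expressed genes the thick bar spans the middle 50% and the thin line the 5th to the 95th percentile. The 6 named genes lie past the dashed lines, and the medians of complexes I and IV lie at -0.09.

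Complex I, the NADH dehydrogenase, held the largest number of genes below 0, and it also has the most genes of the 5 complexes. Its 35 genes summed to 2133 FPKM in SATB1-positive and 2236 FPKM in SATB1-negative cells, a ratio of 0.954. Of its 34 expressed genes, 10 lay above 0 and 24 below (70.6%), with a median log2 ratio of -0.09. The median was -0.04 without genes that share 50-base words with another gene and -0.05 at a mean of at least 50 FPKM. The shift was small for each gene, since only Ndufb4 was past 25%.

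The 7 nuclear core subunits carry the flavin and the iron-sulfur clusters along which electrons run from NADH to ubiquinone. Their levels were close to each other, from 52.7 to 100.1 FPKM in SATB1-positive and from 48.9 to 108.9 FPKM in SATB1-negative cells. Of the NADH-oxidising module, Ndufv1, which binds NADH and flavin, was at 81.8 and 79.1 FPKM, a log2 ratio of 0.05. Ndufv2 was at 92.6 and 94.6 FPKM (-0.03) and Ndufs1, which holds several iron-sulfur clusters, at 52.7 and 48.9 FPKM (0.10). Of the ubiquinone-reducing module, Ndufs8 was at 93.6 FPKM in SATB1-positive and 106.6 FPKM in SATB1-negative cells, 1.14-fold lower (1.07 to 1.22), Ndufs7 at 100.1 and 108.9 FPKM (-0.12) and Ndufs3 at 69.8 and 76.0 FPKM (-0.12). Of the words of Ndufs3, 39.7% are shared with other genes. Core subunits thus lay on both sides of 0.

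The accessory subunits surround this core and serve its assembly and stability. Of 27 expressed, 7 lay above 0 and 20 below, with a median log2 ratio of -0.10, and the 28 genes summed to 1553 FPKM in SATB1-positive and 1638 FPKM in SATB1-negative cells. Ndufb8 was the most abundant at 178.1 and 201.7 FPKM (-0.18). Ndufa10, a subunit related to nucleoside kinases, had the highest ratio, at 129.6 against 109.2 FPKM, 1.19-fold higher (1.15 to 1.23). Ndufs6 followed at 24.2 against 20.98 FPKM, 1.15-fold higher (0.952 to 1.39), and Ndufa3 at 13.3 against 12.0 FPKM (0.14). For Ndufs6 the counting interval reached across 1. The remaining 20 expressed accessory subunits, not named singly, had log2 ratios from -0.25 for Ndufa5 to 0.08 for Ndufa9.

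At the other end of the accessory subunits, Ndufb4 was at 31.4 FPKM in SATB1-positive and 39.6 FPKM in SATB1-negative cells, 1.26-fold lower (1.14 to 1.39). Of the 50-base words of its transcripts, 37.0% also occur in another gene, above all in Ndufb4c, so fragments could be split between them. Ndufa12 was at 85.8 against 104.3 FPKM, 1.22-fold lower (1.11 to 1.33), and Ndufa7 at 43.3 against 52.6 FPKM, 1.21-fold lower (1.03 to 1.43), both just short of 25% on that scale. Of the words of Ndufa12, 26.2% are shared. Ndufs5 was measured at 1.58 FPKM (about 13 fragments) in SATB1-positive cells and listed at 0 in SATB1-negative cells, with 41.2% of its words shared with a processed pseudogene. Since Ndufs5 is a widely expressed subunit, its row was read as a listed value only and no fold is given.

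Complex II, succinate dehydrogenase, also belongs to the tricarboxylic acid cycle and is encoded in the nucleus only. Its 4 genes summed to 508 FPKM in SATB1-positive and 505 FPKM in SATB1-negative cells. Sdha, the flavoprotein that oxidises succinate, was at 156.9 and 158.1 FPKM (-0.01). Sdhb, the iron-sulfur subunit, was at 139.9 and 124.0 FPKM, 1.13-fold higher (1.08 to 1.18). The membrane anchors Sdhc and Sdhd, which bind ubiquinone and heme, were at 69.1 and 72.3 FPKM (-0.07) and at 141.7 and 150.6 FPKM (-0.09). Only Sdhb lay above 0, while for Sdha the counting interval of the fold (0.969 to 1.02) held 1.

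Complex III, the cytochrome bc1 complex, had 4 of its 8 genes above 0 and 4 below, with a median log2 ratio of 0.00. The core proteins and the Rieske subunit summed to 529 FPKM in SATB1-positive and 511 FPKM in SATB1-negative cells, and the 5 small accessory subunits to 299.9 and 339.7 FPKM. Uqcrc1, a core protein and the most abundant gene of the complex, was at 217.5 and 219.3 FPKM (-0.01). Uqcrc2, the other core protein, was at 126.9 and 110.6 FPKM, 1.15-fold higher (1.11 to 1.19), and Uqcrfs1, the Rieske iron-sulfur protein that hands electrons towards cytochrome c, at 184.9 and 180.7 FPKM (0.03). Of the small subunits, Uqcr11 was at 28.9 and 27.9 FPKM (0.05), Uqcrq at 41.1 and 40.6 FPKM (0.02), Uqcr10 at 38.8 and 40.5 FPKM (-0.06) and Uqcrb at 91.5 and 99.9 FPKM (-0.13). Uqcrh had the lowest ratio, at 99.7 FPKM in SATB1-positive and 130.9 FPKM in SATB1-negative cells, about 899 and 1551 fragments, 1.31-fold lower (1.21 to 1.43). Some of the words of Uqcrh (7.83%) are shared, above all with Uqcrh-ps1, and 43.4% of those of Uqcrb are shared.

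Complex IV, cytochrome c oxidase, held both genes that were higher past 25%. Its 21 genes summed to 1604 FPKM in SATB1-positive and 1620 FPKM in SATB1-negative cells, with 5 of 14 expressed genes above 0 and 9 below. Their median log2 ratio was -0.09, and -0.04 at a mean of at least 50 FPKM. Without Cox4nb, which encodes no subunit, 4 lay above 0 and 9 below, with a median of -0.12. The median was -0.15 for the genes that share no words with another gene, which were Cox8a, Ndufa4, Cox7a2, Cox6b2 and Cox6b1. Cox6a1 was at 274.3 FPKM in SATB1-positive and 207.3 FPKM in SATB1-negative cells, about 2652 and 2631 fragments in a library that was the shallower of the pair, 1.32-fold higher (1.253 to 1.40). Cox8a was at 116.6 and 91.8 FPKM, 1.27-fold higher (1.17 to 1.38), and shares no 50-base word with another gene, while Cox6a1 shares 12.3%. Ndufa4 followed at 160.8 and 144.4 FPKM, 1.11-fold higher (1.04 to 1.19).

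The lower end of complex IV held abundant genes. Cox4i1, the largest nuclear subunit and the most abundant of the complex, was at 359.0 FPKM in SATB1-positive and 414.8 FPKM in SATB1-negative cells, 1.16-fold lower (1.12 to 1.20). Cox7a2l, known as a factor that joins complexes III and IV into supercomplexes, was at 188.8 and 230.4 FPKM, 1.22-fold lower (1.18 to 1.27). Cox6b1, which faces the intermembrane space where cytochrome c docks, was at 55.6 and 66.0 FPKM, 1.19-fold lower (1.07 to 1.32). Cox5a and Cox5b, which sit near the matrix face, were at 218.3 and 222.7 FPKM (-0.03) and at 75.1 and 78.3 FPKM (-0.06), Cox6c at 45.9 and 49.8 FPKM (-0.11) and Cox7c at 37.4 and 36.3 FPKM (0.04). Shared words made up 53.0% of those of Cox7c, 32.0% of Cox5a and 25.9% of Cox5b. The log2 ratios of complex IV thus ran from -0.29 to 0.40, against -0.32 to 0.24 in complex I.

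Several complex IV subunits exist as alternative isoforms with their own tissues, and in both libraries the broadly expressed isoforms made up nearly all of the summed FPKM of their group, except in the Cox6b pair. Cox4i1 was 99.3% of the Cox4i pair in SATB1-positive and 99.4% in SATB1-negative cells, with Cox4i2, an isoform known from lung, at 2.50 and 2.64 FPKM, 1.05-fold lower (0.667 to 1.68). Cox6a1 was 99.9% of its pair in SATB1-positive and 99.97% in SATB1-negative cells, and its heart and muscle isoform Cox6a2 was at 0.164 and 0.0632 FPKM. Cox7a2 was at 22.2 and 24.7 FPKM, and the muscle isoform Cox7a1 at 0.691 and 0.177 FPKM, which is about 3 fragments and 1. Cox8b, a muscle isoform, was listed at 0 in SATB1-positive cells and at 0.180 FPKM in SATB1-negative cells, and Cox8c, known from testis, was listed at 0 in both.

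Ndufa4l2, known as a hypoxia-induced relative of Ndufa4, was listed at 0 in SATB1-positive cells and at 0.0379 FPKM in SATB1-negative cells. Cox7b2 was at 0.221 FPKM in SATB1-positive cells and listed at 0 in SATB1-negative cells, beside Cox7b at 14.4 and 15.8 FPKM. Rows with 3 fragments or fewer in both libraries are given no fold. Cox6b2, known as a testis isoform, was the exception among the restricted isoforms, with 16.3 FPKM in SATB1-positive and 18.6 FPKM in SATB1-negative cells, about 93 and 139 fragments. It made up 22.7% of the Cox6b pair in SATB1-positive and 21.9% in SATB1-negative cells, and it shares no 50-base word with another gene.

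Complex V, the ATP synthase, had the highest summed level of the 5 complexes, 3103 FPKM in SATB1-positive and 3056 FPKM in SATB1-negative cells, a ratio of 1.02. Of its 16 expressed genes, 9 lay above 0 and 7 below, with a median log2 ratio of 0.03. Without Atp5s and Atp5sl, which encode no subunit, 8 lay above 0 and 6 below, with the same median of 0.03. Leaving out genes that share words with another gene kept only Atp5g3, Atp5sl, Atp5d, Atp5s and Atp5e. Their median was -0.13, which is the value of Atp5d. By summed FPKM the parts of complex V did not lie to the same side, but a sum is weighted to its most abundant genes. The F1 head and central stalk, where ATP is made, summed to 1666 FPKM in SATB1-positive and 1595 FPKM in SATB1-negative cells, and the c ring, which turns as protons pass, to 532 and 496 FPKM. The peripheral stalk, which holds the head still, summed to 782 FPKM in SATB1-positive and 842 FPKM in SATB1-negative cells. Atp5b alone gave 672 and 583 FPKM of the F1 sum. By gene, 3 F1 genes lay above 0 and 2 below, and 1 stalk gene lay above 0 and 3 below.

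Atp5b, the catalytic beta subunit, was the most abundant of all 85 genes, at 672 FPKM in SATB1-positive and 583 FPKM in SATB1-negative cells, 1.15-fold higher (1.13 to 1.17). Atp5a1, the alpha subunit, was at 368.8 and 360.1 FPKM (0.03), Atp5c1, the gamma subunit of the rotor, at 360.8 and 351.5 FPKM (0.04), and Atp5d, the delta subunit, at 234.1 and 256.3 FPKM (-0.13). Atp5e, the smallest F1 subunit, had the lowest ratio of the 85 genes, at 30.8 FPKM in SATB1-positive and 43.8 FPKM in SATB1-negative cells. That was 1.42-fold lower (1.18 to 1.72), on about 174 and 325 fragments, with no 50-base word shared. The F1 part thus held both the most abundant gene and the gene with the lowest ratio.

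The c ring is built from one protein encoded by 3 genes, all of which lay above 0. Atp5g2 was at 283.6 FPKM in SATB1-positive and 261.8 FPKM in SATB1-negative cells, 1.08-fold higher (1.04 to 1.13), Atp5g3 at 148.0 and 136.2 FPKM, 1.09-fold higher (1.02 to 1.15), and Atp5g1 at 100.5 and 98.2 FPKM (0.03). Their shares of the sum were close in both libraries: 53.3% and 52.8% for Atp5g2, 27.8% and 27.5% for Atp5g3, and 18.9% and 19.8% for Atp5g1. Of the words of Atp5g2, 87.4% are shared with another gene, so its share is uncertain.

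In the peripheral stalk, Atp5j was at 156.0 FPKM in SATB1-positive and 196.6 FPKM in SATB1-negative cells, 1.26-fold lower (1.20 to 1.33), on about 2222 and 3677 fragments. It shares 14.4% of its words, more with Gabpa, which encodes a GABP subunit, than with any other gene, and Gabpa itself was at 33.4 and 31.7 FPKM. Atp5o, which fastens the stalk to the head, was at 203.5 and 225.0 FPKM (-0.14), Atp5h at 188.2 and 190.0 FPKM (-0.01) and Atp5f1 at 234.6 and 230.0 FPKM (0.03). Shared words made up 50.3% of those of Atp5o, 50.5% of Atp5h and 38.7% of Atp5f1. The membrane subunits Atp5j2 and Atp5l were at 34.8 and 33.8 FPKM (0.04) and at 57.5 and 59.1 FPKM (-0.04). Of the words of Atp5l, 84.8% are shared with other genes. Atp5k was at 4.03 and 2.79 FPKM, a fold of 1.45 with an interval of 0.689 to 3.06 on about 17 and 16 fragments, and so was not distinguishable at this depth. Of the rows that encode no subunit, Atp5s was at 15.3 and 18.0 FPKM, 1.17-fold lower (1.05 to 1.31), Atp5sl at 10.2 and 9.49 FPKM (0.10) and Cox4nb at 15.5 and 15.5 FPKM.

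Subunit genes are short, with a median of 743.5 bases for the shortest RefSeq-linked transcript against 2520 bases over all expressed genes, and the ratio moved with length in the whole series. Among transcripts under 1000 bases the median log2 ratio was -0.09 for the 50 subunit genes, of which 14 lay above 0 and 36 below, and also -0.09 for all 971 genes, 64.8% of them below 0. At 1000 bases or more it was 0.02 for the 26 subunit genes, 15 above and 11 below, and 0.01 for all 8044 genes, 48.2% of them below 0. Spearman's rho between length and log2 ratio was 0.288 across the 76 subunit genes and 0.189 across 9015 genes, as a description over genes that share their libraries. Of the genes past 25%, all 6 had a shortest transcript under 1000 bases. The part of length in the ratios of single genes was not tested.

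**Figure D3:**
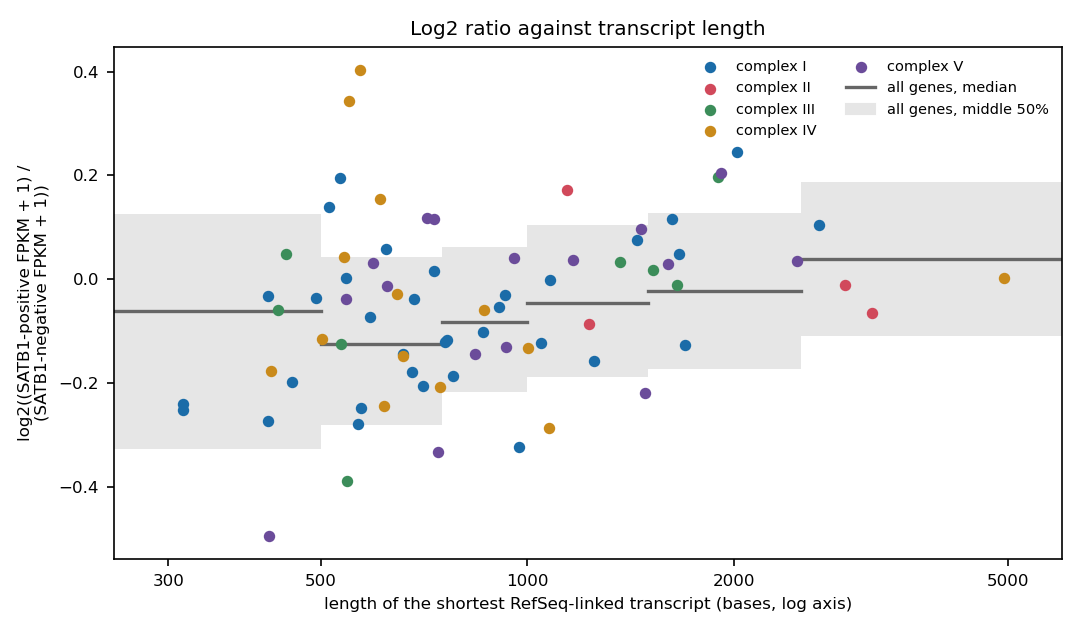
Log2 ratio of the 76 expressed subunit genes, SATB1-positive over SATB1-negative, against the length of the shortest RefSeq-linked transcript in bases on a log axis, coloured by complex; grey lines and bands are the median and the middle 50% of all expressed genes in the same length range. Most subunit genes lie under 1000 bases, where the grey medians are below 0, and 2 complex IV genes stand above the rest.

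Level also differed with length among the subunits. The 10 expressed subunit genes under 500 bases had a median of 22.9 FPKM over the 2 libraries, against 95.7 FPKM for the 29 genes of 500 to 750 bases, 93.6 FPKM for the 11 genes of 750 to 1000 bases, 96.4 FPKM for the 12 genes of 1000 to 1500 bases and 119 FPKM for the 10 genes of 1500 to 2500 bases. The 4 genes of 2500 bases or more had a median of 60.8 FPKM. Spearman's rho between length and mean level was 0.345 across the 76 genes and -0.255 across all expressed genes.

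Other mitochondrial genes were measured beside the subunits. The 13 subunits encoded in mitochondrial DNA were not analysed here. Of 11 electron carriers and subunits outside the rule, 10 were expressed, 4 above 0 and 6 below, with 1 of the 10 lower past 25%, against 9.70% of all expressed genes. That was Ndufab1, the acyl carrier protein that is also a complex I subunit, at 91.4 FPKM in SATB1-positive and 116.4 FPKM in SATB1-negative cells, 1.27-fold lower (1.24 to 1.31). Cyc1, the cytochrome c1 of complex III, had the highest ratio at 127.5 and 112.6 FPKM (0.18), and Etfb, of the electron transfer flavoprotein, the highest level at 284.8 and 264.1 FPKM.

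Of 13 expressed complex I assembly factors, 6 lay above 0 and 7 below, 2 (15.4%) were higher past 25% and 1 (7.69%) lower, against 10.6% and 9.70% of all expressed genes. Ndufaf2 was at 24.7 FPKM in SATB1-positive and 34.9 FPKM in SATB1-negative cells, 1.41-fold lower (1.23 to 1.63), and Ecsit at 23.5 and 18.2 FPKM, 1.29-fold higher (1.17 to 1.43). The other one past the line was Tmem186, at 12.3 and 9.39 FPKM. Of 29 expressed assembly factors of complexes II to V, 12 lay above 0 and 17 below, and 1 (3.45%) was lower past 25%. It was Cox14 (in the files 2310016M24Rik), at 48.8 and 67.2 FPKM, 1.38-fold lower (1.252 to 1.52). Coa3 (Ccdc56), known from human cells to act with Cox14 on the synthesis of the mitochondrially encoded COX1 protein, was the most abundant at 78.2 and 88.0 FPKM (-0.17), and Uqcc1 (Uqcc) had the highest ratio at 22.9 and 20.5 FPKM (0.16).

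Of 19 expressed genes of mitochondrial transcription and biogenesis, 9 lay above 0 and 10 below. None was lower past 25%, against 9.70% of all expressed genes, and 1 (5.26%) was higher, against 10.6%. That was Gabpb2, a subunit of GABP, at 7.49 FPKM in SATB1-positive and 4.45 FPKM in SATB1-negative cells, 1.68-fold higher (1.56 to 1.81), while its paralog Gabpb1, the most abundant of the list, was at 70.9 and 79.8 FPKM (-0.17). Tefm (1110002N22Rik), a mitochondrial elongation factor, had the lowest ratio at 12.7 and 15.5 FPKM (-0.26). Nrf1 was at 35.0 and 32.2 FPKM (0.12) and Tfam, which packages mitochondrial DNA, at 20.5 and 20.3 FPKM (0.01). Ppargc1a, the coactivator PGC-1alpha, was at 0.831 and 0.584 FPKM and below the filter.

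The 18 genes of the tricarboxylic acid cycle and pyruvate dehydrogenase lay mostly above 0, 14 against 4, with a median log2 ratio of 0.08. None was past 25%, against 10.6% higher and 9.70% lower of all expressed genes. Pdhx had the highest ratio at 14.9 FPKM in SATB1-positive and 12.0 FPKM in SATB1-negative cells (0.28), Suclg2 the lowest at 79.4 and 88.4 FPKM (-0.15), and Mdh2 the highest level at 309.3 and 321.7 FPKM (-0.06). Of 29 genes of protein import and the inner membrane, 16 lay above 0 and 13 below. Past 25%, 2 (6.90%) were higher and 1 (3.45%) lower, against the same 10.6% and 9.70%. The chaperonin Hspd1 was at 318.6 and 248.6 FPKM, 1.28-fold higher (1.26 to 1.31), and the ATP/ADP carrier Slc25a5, through which the product of complex V leaves the matrix, at 989 and 788 FPKM, 1.26-fold higher (1.24 to 1.28). Timm10, a small chaperone of the intermembrane space, was at 15.4 and 20.4 FPKM, 1.32-fold lower (1.11 to 1.58).

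**Figure D4:**
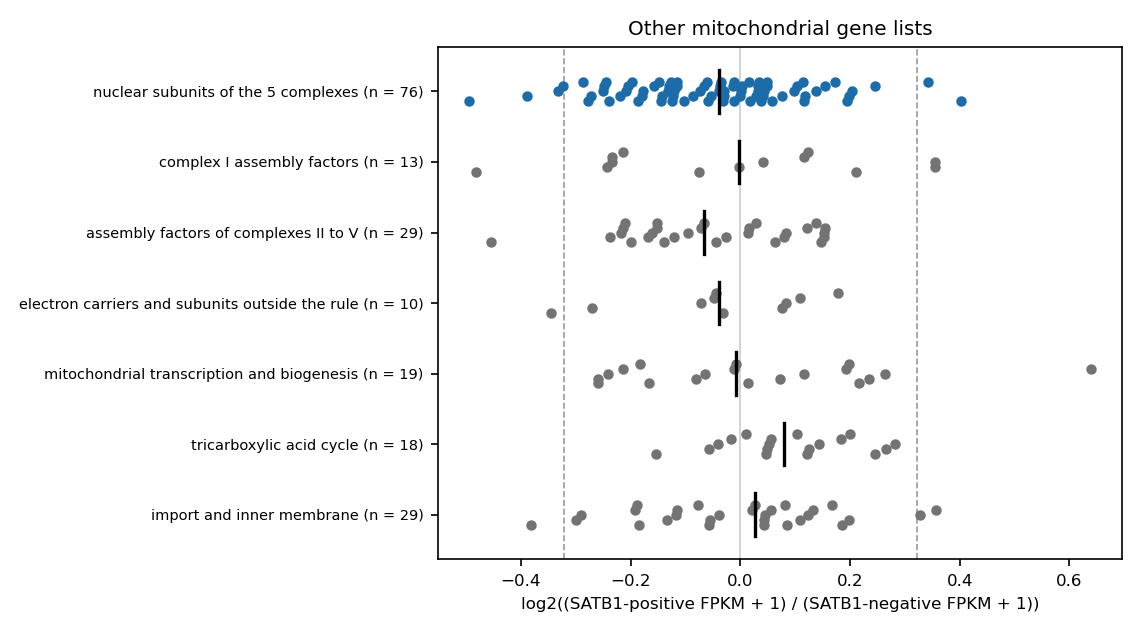
Log2 ratio, SATB1-positive over SATB1-negative, of the expressed genes of each mitochondrial gene list; each point is a gene, black bars are medians and dashed lines mark the 25% difference. The medians run from -0.07 for the assembly factors of complexes II to V to 0.08 for the tricarboxylic acid cycle, and Gabpb2 stands furthest to the right at 0.64.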

How the data were processed

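Gene-level FPKM of 2 libraries, named so in the file headers, were used as deposited, with a single value for each symbol. Per the labels' protocols, the miRNeasy kit gave total RNA and a SMARTer Stranded kit the libraries. The submitters' processing notes name Cufflinks 2.2.1, TopHat2 2.0.13, SAMtools 0.1.19 and Bowtie2 2.2.3 and the build mm10. What each tool did, the annotation and the use of strand were not given in the sources used here, and without strand a gene's reads cannot be told from those of an antisense partner.

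Of 23235 rows per file, 25 symbols turned into dates were left out. Depth was estimated as the value that makes low FPKM of single-exon genes of GENCODE M21 whole numbers of fragments: 63.5% of 203 SATB1-positive and 61.3% of 168 SATB1-negative values were whole within 0.05 fragments, against 10% for a random depth, which is no chance level for a depth chosen by search. Symbols matched GENCODE for 98.0% of genes and all 85 members. Transcripts sharing 50-base words with another gene were marked (47 of 85 members, 16 of them with more than 25% of their words shared). Genes passed with a mean of at least 5 FPKM, and the 2-fold rule needed 5 FPKM in the higher library. The pseudocount was 1, and the 25% rule used the same scale. Computations ran in Python 3.11.15 with pandas 2.3.3, NumPy 2.4.6 and SciPy 1.17.1 and were tested on simulated data. Members, lists and thresholds were chosen with earlier results of these data known. In each complex the genes with the 3 highest and 3 lowest ratios, the most abundant, the core subunits and the isoform groups were named, and of each other list the highest, lowest and most abundant. 1 member is not reported singly, in the text or among the labelled genes of the figures. Tmem186 and a few further members and regulators were named after their values were seen. Alternatives changed the pseudocount, scaling, filter and membership.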

Additional observations from a re-analysis of the deposited data

How the results depend on the processing

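The 2 libraries give no spread between replicates, counting error is the only error shown, and no library could be left out. No paired analysis was possible because each group has 1 library and the labels carry no replicate number. Of 107 alternative values of the counts, medians and share, 99 stayed within the limits set for them and 8 moved. The limits of the medians are wide. Without members that share 50-base words, 32 of the 76 expressed members were left. The median of complex V then turned to -0.13, against 0.03, and that of complex I was -0.04, against -0.09. That of complex II was -0.01, against -0.04, and that of complex IV -0.15, against -0.09. For complexes II, IV and V few genes were left, and these medians are the values of Sdha, Cox7a2 and Atp5d. The median of complex III, 0.00, was -0.02 with upper-quartile scaling and -0.01 at a mean of at least 50 FPKM, where that of complex I was -0.05 and that of complex IV -0.04. That of complex IV was also -0.05 with no filter and that of complex II -0.06 with upper-quartile scaling. The 2 genes higher past 25% became 1 with upper-quartile scaling, where Cox8a was at 0.32, 5 with no filter and 1 without members that share 50-base words. The 4 lower genes became 2 at a mean of at least 50 FPKM and 1 without members that share words. These counts are of 49 members at a mean of at least 50 FPKM and of 32 expressed members that share no words, against 76. Ndufb4 was at -0.29 with a pseudocount of 5. By the 2-fold rule, 1 gene (Ndufs5, listed at 0 in SATB1-negative cells) was higher with no filter and with a minimum of 1 FPKM in the higher library, against 0. The difference in share was -0.0152 points. It was -0.0004998 points for the 32 expressed members that share no words, whose sum is a smaller part of all FPKM. The median of all genes shifted by at most -0.02, under upper-quartile scaling. The choice of complex for Ndufa4 and Ndufa4l2, added after the data were seen, moved neither median beyond its limits.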
